A study of Mus musculus with 8 samples.

Results

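The genes described here are the p53 family, the 2 p53 inhibitors Mdm2 and Mdm4, and 3 target genes of the family, measured in the ventral prostate of mice that carry the polyoma virus middle T antigen (MT) and of wild-type mice. The members were named as Trp53, Trp63, Trp73, Mdm2, Mdm4, Ccng1, Perp and Sfn, and every probe set annotated to exactly 1 of these symbols was taken. This gave 14 probe sets for 7 of the 8 genes, out of 22626 probe sets on the array that were not controls. Trp53 itself is not analysed here. MT is a viral oncoprotein of the membrane that engages Src-family kinases and phosphatidylinositol 3-kinase. The MT group held 4 arrays of ventral prostate from male transgenic FVB mice, and the wild-type group 4 arrays of the same lobe from male FVB mice, all at 8 weeks of age. The sources used here give neither the promoter that drives the transgene nor whether each array came from a mouse of its own. The p-values therefore measure the spread among arrays of a group, which may be technical.

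p53 is a transcription factor that halts the cell cycle or triggers cell death after DNA damage and other stress. p63 and p73 are its relatives and bind similar DNA sequences, but p63 is best known for building and maintaining stratified and basal epithelium, and in the prostate it marks the basal cells that underlie the secretory luminal cells. Mdm2 and Mdm4 bind p53 and hold it in check. Ccng1, Perp and Sfn respond to p53, and Perp is also a target of p63.

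All levels are log2 values after RMA, differences are MT minus wild type, values after ± are SDs for levels and standard errors for differences, and n is 4 arrays per group. Calls are limma adjusted p-values under 0.05, adjusted over all 22626 probe sets. The prostate secretory genes fixed as tissue markers, among them probasin (Pbsn), averaged 8.98 to 9.44 over their list on MT arrays and 11.56 to 11.91 on wild-type arrays, whereas 5 seminal vesicle genes averaged 3.63 to 3.76 on MT arrays and 3.65 to 3.82 on wild-type arrays. Control probe sets for Bacillus transcripts, which serve here as background, read 2.57 to 3.90. The 3' minus 5' difference of the Gapdh control probe sets was 0.51 ± 0.09 on MT arrays and 0.70 ± 0.17 on wild-type arrays (two-sided exact permutation p = 0.0857), and that of Actb 0.73 ± 0.12 and 0.91 ± 0.14 on the same groups (exact permutation p = 0.114).

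The members did not move as a group. Perp fell 4.57-fold and Trp63 fell on its brightest probe set, Sfn rose 2.31-fold, Mdm4 rose on both of its probe sets, and Ccng1 rose on 1 of 3. The probe sets of Mdm2 and Trp73 did not pass. In all 6 of 14 member probe sets passed (42.9%), where 37.8% of all probe sets passed. Of these members 4 were higher in MT and 2 lower, where 18.1% of all probe sets were higher and 19.7% lower. The same 6 were the ones whose MT and wild-type values did not overlap, against 37.5% of all probe sets. The share called among the members is thus near that of the whole array, and the plot of the values by array shows how unevenly it is spread over the genes.

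**Figure D1:**
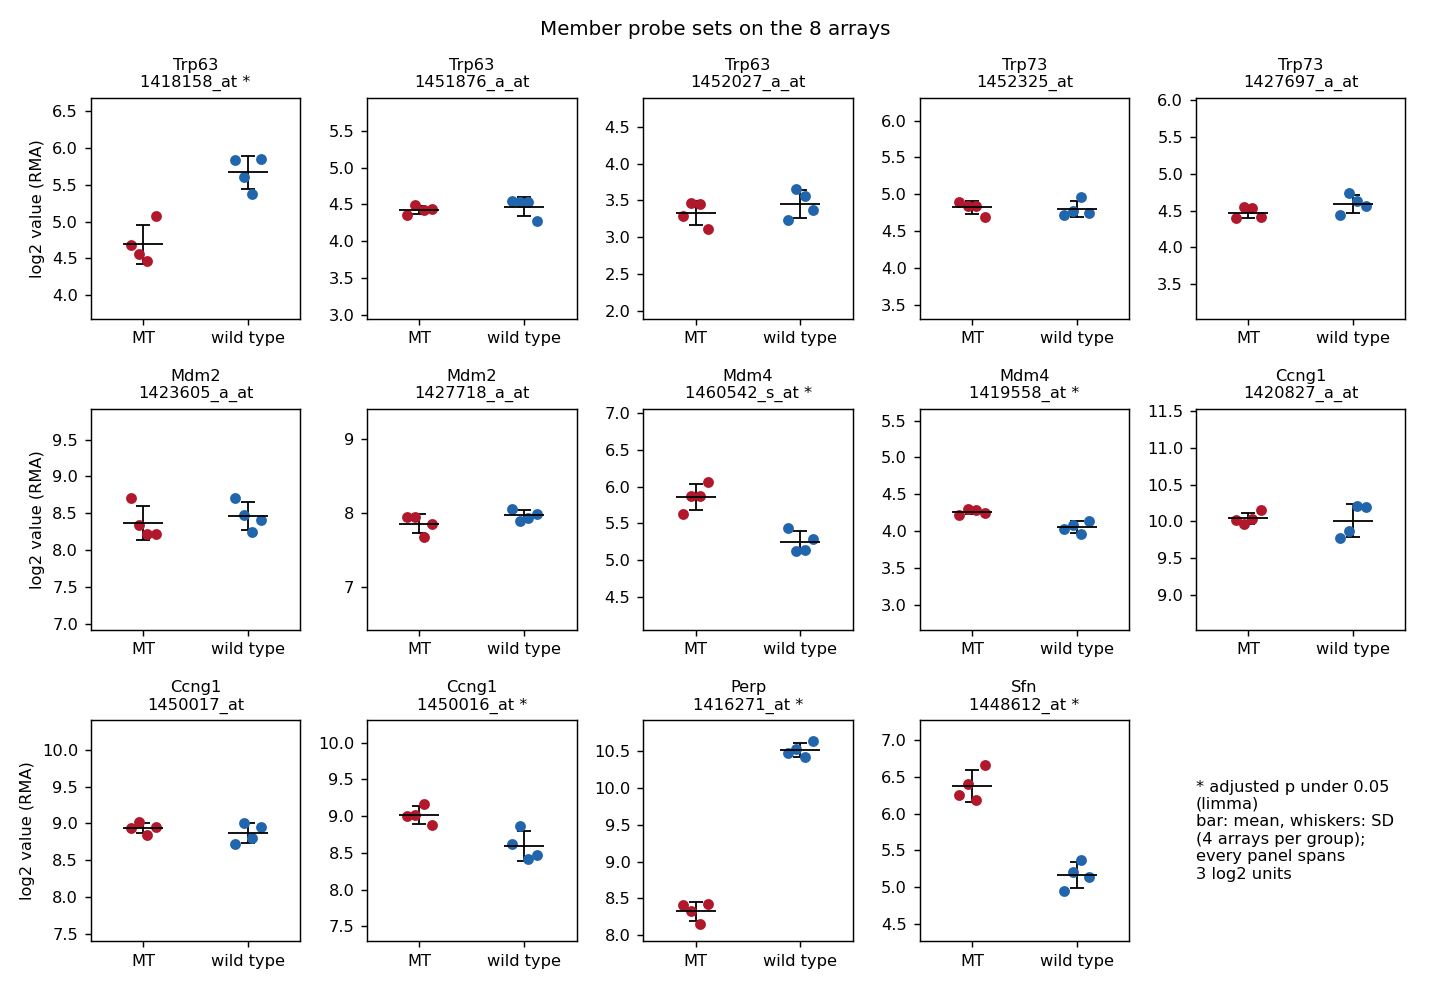
Log2 values of the 14 member probe sets on each array, MT left (red) and wild type right (blue), with the mean and SD of 4 arrays per group; every panel spans the same height of log2 units. Perp, Sfn and the brightest Trp63 probe set show separate groups, while both probe sets of Mdm2 and of Trp73 overlap.

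Proteins of the p53 family bind a known DNA element. The bases upstream of the members' starts are shown for the 3 genes Ccng1, Mdm2 and Sfn, which differ in whether they hold the p53 half-site consensus. The consensus is a stretch of 10 bases that reads the same on both strands. In the RefSeq sequences (GRCm38.p6), 3 of 8 windows of 250 bases upstream of starts of Trp53, Trp73, Mdm2, Mdm4, Ccng1 and Sfn held a match, those of Trp53, Mdm2 and Ccng1, whereas 7.13% of all 32851 such windows did. A tandem pair of CATG cores, as adjoining half-sites can give, was in none of the members' windows, against 0.490% of all windows. Perp and Trp63 had no window in the sequences used. The 3 windows below lie on the minus strand at chr11:40755287-40755536, chr10:117710759-117711008 and chr4:133602169-133602418, are written 5′ to 3′, and carry the match in capitals.
Ccng1: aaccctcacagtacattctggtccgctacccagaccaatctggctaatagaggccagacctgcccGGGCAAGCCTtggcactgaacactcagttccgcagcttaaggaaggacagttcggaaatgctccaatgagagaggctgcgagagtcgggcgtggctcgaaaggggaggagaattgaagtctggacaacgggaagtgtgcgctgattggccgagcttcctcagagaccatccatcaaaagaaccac
Mdm2: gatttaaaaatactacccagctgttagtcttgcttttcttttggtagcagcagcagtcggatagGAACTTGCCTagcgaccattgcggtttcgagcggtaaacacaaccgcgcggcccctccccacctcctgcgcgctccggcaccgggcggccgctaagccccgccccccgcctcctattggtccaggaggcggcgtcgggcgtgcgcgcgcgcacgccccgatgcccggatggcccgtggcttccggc
Sfn: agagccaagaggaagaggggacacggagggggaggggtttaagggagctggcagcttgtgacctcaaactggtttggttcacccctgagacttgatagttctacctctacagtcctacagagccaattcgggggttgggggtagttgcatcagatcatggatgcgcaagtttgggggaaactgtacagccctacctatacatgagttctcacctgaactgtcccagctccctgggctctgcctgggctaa
The match began 185 bases before the start of Ccng1 and 186 bases before that of Mdm2, and Sfn had none in this window. A match is a description of the letters, and elements outside these windows were not searched.

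Among the p53 family, Trp63 fell on 1 of 3 probe sets. Probe set 1418158_at read 4.68, 4.56, 4.47 and 5.07 on MT arrays 1 to 4, against 5.84, 5.60, 5.37 and 5.85 on wild-type arrays 1 to 4. The highest MT value stayed below the lowest wild-type value. The difference was -0.98 ± 0.14, a 1.97-fold fall (limma adjusted p = 0.000251), which ranked 479 among the falls of all probe sets. The other 2 probe sets of Trp63 did not pass. Probe set 1451876_a_at averaged 4.42 ± 0.06 in MT and 4.47 ± 0.13 in wild type, a difference of -0.05 with a 95% interval from -0.21 to 0.12. Probe set 1452027_a_at was no brighter than the highest Bacillus control on 8 of 8 arrays and is not well above background. The change on 1418158_at set against that on 1451876_a_at differed by -0.93 (two-sided exact permutation p = 0.0286, the smallest that 70 assignments allow), which did not pass after adjustment over the 9 pairs of probe sets compared (adjusted exact p = 0.129).

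Trp73, whose product takes part in multiciliated and neural development as well as in cell death, did not pass. Probe set 1452325_at averaged 4.82 ± 0.09 in MT and 4.80 ± 0.11 in wild type, and probe set 1427697_a_at averaged 4.48 ± 0.08 in MT and 4.59 ± 0.13 in wild type. The 95% intervals of the differences ran from -0.14 to 0.19 and from -0.28 to 0.06, so that a change of 2-fold lay outside both. Both probe sets read above the highest Bacillus control on every array.

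The genes of the basal layer gave a mixed picture beside Trp63. The keratins Krt5 and Krt15, which mark basal prostate cells, fell, with differences of -1.07 ± 0.12 and -1.35 ± 0.19 (limma adjusted p = 5.03e-05 and 0.000188). Krt5 read 7.19, 7.26, 7.43 and 7.38 on MT arrays 1 to 4, against 8.71, 8.54, 8.15 and 8.16 on wild-type arrays 1 to 4. Krt14, another basal keratin, had a difference of 0.01 ± 0.13 (limma adjusted p = 0.952) and was named after its value was seen. Of 16 measured p63 target and basal layer genes, 6 were lower, 3 were higher and 7 did not pass, with a median difference of -0.01, where 20.7% of all 12393 genes were lower, 19.3% were higher and the median was -0.01. Itgb4, the integrin of hemidesmosomes, rose by 1.13 ± 0.10. Trp63 set against the mean of Krt5, Krt14 and Krt15 within each array differed by -0.17 between the groups (two-sided exact permutation p = 0.4), so that a fall of Trp63 beyond that of these keratins was not detected. With Trp63 taken as the mean of its 3 probe sets that difference was 0.42 (exact permutation p = 0.0286), a smaller fall of Trp63 than of the keratins. This mean includes 1452027_a_at, which is not well above background, and 1451876_a_at, which is above it on every array and changed by -0.05. Both pull the change of Trp63 towards 0 by construction, so the comparison depends on which probe sets stand for Trp63. It also depends on Krt14. With Krt14 included the keratin mean changed by -0.80, a smaller fall than that of Krt5 or of Krt15. In bulk tissue, fewer cells of a type and less RNA per cell cannot be told apart. Smooth muscle genes were lower in MT for 8 of 8 and fibroblast genes for 6 of 7, while luminal keratin and adhesion genes were higher for 7 of 7. Their list means were 8.06 to 8.85, 7.69 to 8.28 and 11.91 to 12.05 on MT arrays, against 9.06 to 9.78, 8.47 to 9.17 and 10.95 to 11.14 on wild-type arrays. Among genes of other cells, 3 of 7 macrophage genes were higher and 1 lower in MT, 3 of 6 T and B cell genes were higher, and 1 of 5 endothelial genes was lower. Their part in any of the members' differences was not tested.

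Of the inhibitors, Mdm4 rose while Mdm2 did not pass. Mdm2, the ubiquitin ligase that marks p53 for degradation and is itself induced by p53, read 8.71, 8.33, 8.22 and 8.22 on MT arrays 1 to 4 with probe set 1423605_a_at, against 8.71, 8.47, 8.25 and 8.41 on wild-type arrays 1 to 4. The groups overlapped, and the 95% interval of the difference ran from -0.36 to 0.19. Its probe set 1427718_a_at averaged 7.85 ± 0.13 in MT and 7.97 ± 0.07 in wild type, with an interval from -0.29 to 0.06. A change of 2-fold in either direction lay outside both intervals.

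Mdm4, a relative of Mdm2 that blocks the activation domain of p53, read 5.62, 5.87, 5.88 and 6.07 on MT arrays 1 to 4 with probe set 1460542_s_at, against 5.44, 5.12, 5.14 and 5.29 on wild-type arrays 1 to 4. The groups did not overlap. The difference was 0.61 ± 0.10, a 1.53-fold rise (limma adjusted p = 0.000778). The dimmer probe set 1419558_at read 4.22, 4.30, 4.29 and 4.24 on MT arrays 1 to 4, against 4.02, 4.09, 3.95 and 4.14 on wild-type arrays 1 to 4. Its difference was 0.21 ± 0.06 (limma adjusted p = 0.0225), a call lost without MT array 2 (adjusted p = 0.0624), MT array 3 (adjusted p = 0.0594) or wild-type array 3 (adjusted p = 0.0514). Mdm2 minus Mdm4 within each array, each by its brighter probe set, was 2.51 ± 0.40 on MT arrays and 3.21 ± 0.12 on wild-type arrays. That difference of -0.70 passed (two-sided exact permutation p = 0.0286, adjusted exact p = 0.0381 over 4 comparisons of a member with its partners). By these probe sets the 2 inhibitors changed unequally. The groups came close without overlapping, at up to 3.09 on MT arrays and from 3.11 on wild-type arrays. The Mdm4 probe set used, 1460542_s_at, is also marked as matching several transcripts. Mdm2 was not tested against the dimmer Mdm4 probe set, 1419558_at, whose rise of 0.21 was smaller.

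**Figure D2:**
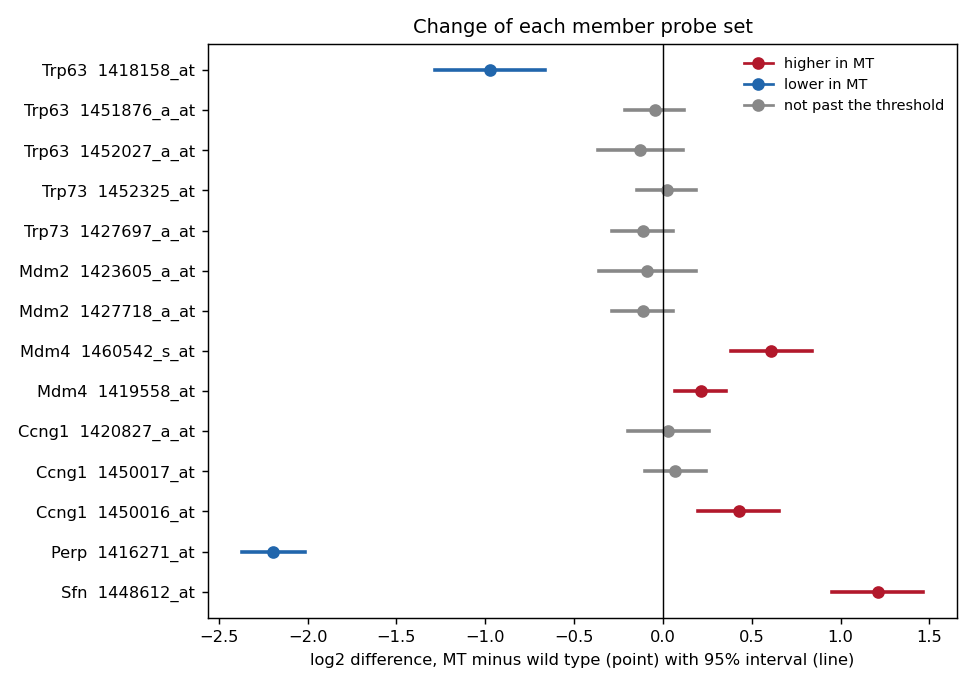
Log2 difference of each member probe set, MT minus wild type, with its 95% interval from limma; red probe sets were higher in MT at an adjusted p under 0.05, blue were lower and grey did not pass. Perp at -2.19 and Sfn at 1.21 lie at the ends, and the probe sets of Trp63 and of Ccng1 spread over passing and not passing.

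The 3 targets differed in direction and size. Perp encodes a tetraspan membrane protein that acts in p53-dependent cell death and, in stratified epithelium, in the assembly of desmosomes. Perp had a single probe set, 1416271_at, so no other probe set could be compared. It read 8.41, 8.32, 8.15 and 8.42 on MT arrays 1 to 4, against 10.48, 10.54, 10.42 and 10.64 on wild-type arrays 1 to 4. The 4 MT arrays lay about 2 log2 units below the wild-type arrays with no overlap. The difference was -2.19 ± 0.08 (limma adjusted p = 1.32e-08), which ranked 53 among the falls of all 22626 probe sets.

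The fall of Perp was not shared by the desmosome genes. Of 11 measured, 5 were higher in MT, 1 was lower and 5 did not pass, with a median difference of 0.26, where 19.3% of all genes were higher and 20.7% lower. Dsc2, a desmosomal cadherin, rose by 1.35 ± 0.08 (limma adjusted p = 3.61e-07) and read 6.59, 6.60, 6.50 and 6.48 on MT arrays 1 to 4, against 5.23, 5.36, 5.03 and 5.13 on wild-type arrays 1 to 4. Desmoplakin (Dsp), which ties desmosomes to keratin, rose by 0.42 ± 0.08, and plakophilin 3 (Pkp3) by 0.37 ± 0.06. One of 2 other probe sets of Dsp (0.15 ± 0.14) and the only other one of Pkp3 (0.22 ± 0.08) did not pass. Pkp1, the one member of the list that fell, had a difference of -0.30 ± 0.09 and was named after its value was seen. Only 3 desmosome genes were higher without MT array 1, 2 or 4, and 2 were lower without MT array 1 or wild-type array 2, while none was lower without MT array 2. Perp minus the mean of the desmosome genes was 0.96 ± 0.11 on MT arrays and 3.42 ± 0.09 on wild-type arrays, a difference of -2.46 (two-sided exact permutation p = 0.0286, adjusted exact p = 0.0381 over 4 comparisons). Dsc1, which is part of this mean, was no brighter than the highest Bacillus control on every array and is not well above background. Over the 8 arrays the genes most like Perp were Azgp1, a secreted glycoprotein of the prostate (Pearson r = 0.999), and Oat, ornithine aminotransferase (r = 0.998), which differed by -2.75 ± 0.10 and -1.08 ± 0.06. These correlations describe 8 arrays in 2 separate groups and carry no test. Azgp1 belongs to the prostate secretory genes fixed as tissue markers. Of 4 of these measured, 3 were lower in MT, with a median difference of -2.89. Their part in the fall of Perp was not tested.

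Sfn encodes 14-3-3 sigma, an epithelial 14-3-3 protein that holds cells in G2 after DNA damage. Sfn too had a single probe set, 1448612_at. It read 6.25, 6.41, 6.18 and 6.66 on MT arrays 1 to 4, against 4.94, 5.20, 5.38 and 5.14 on wild-type arrays 1 to 4. Every MT array lay above every wild-type array. The difference was 1.21 ± 0.12 (limma adjusted p = 1.33e-05) and ranked 395 among the rises of all probe sets.

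Of 6 other 14-3-3 genes measured, 4 were higher in MT, 1 was lower and 1 did not pass, with a median difference of 0.40, beside 19.3% higher and 20.7% lower among all genes. Without probe sets marked as matching several transcripts, 2 of 4 were higher. Ywhaz rose by 0.71 ± 0.13 and Ywhag by 0.57 ± 0.09, while Ywhah fell, with a difference of -0.77 ± 0.08. Some other probe sets of Ywhaz and Ywhag did not pass, and none passed in the opposite direction. Sfn minus the mean of the other 14-3-3 genes was -4.42 ± 0.22 on MT arrays and -5.38 ± 0.19 on wild-type arrays, a difference of 0.97 (two-sided exact permutation p = 0.0286, adjusted exact p = 0.0381 over 4 comparisons). The genes most like Sfn over the 8 arrays were Pkp3 (r = 0.9996) and Npas2 (r = 0.991), a circadian transcription factor. Those most like Mdm4 were Dusp6, a phosphatase that restrains ERK signalling (r = 0.995), and Tomm34 (r = 0.988). Those most like Trp63 were P3h4 (r = 0.982) and A930018P22Rik (r = 0.981). The brightest probe sets of Trp73, Mdm2 and Ccng1 did not pass. The gene most like each was Clrn3 (r = 0.971), Scn10a (r = 0.922) and Mmp8 (r = 0.977), in that order. All these correlations describe 8 arrays and carry no test.

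**Figure D3:**
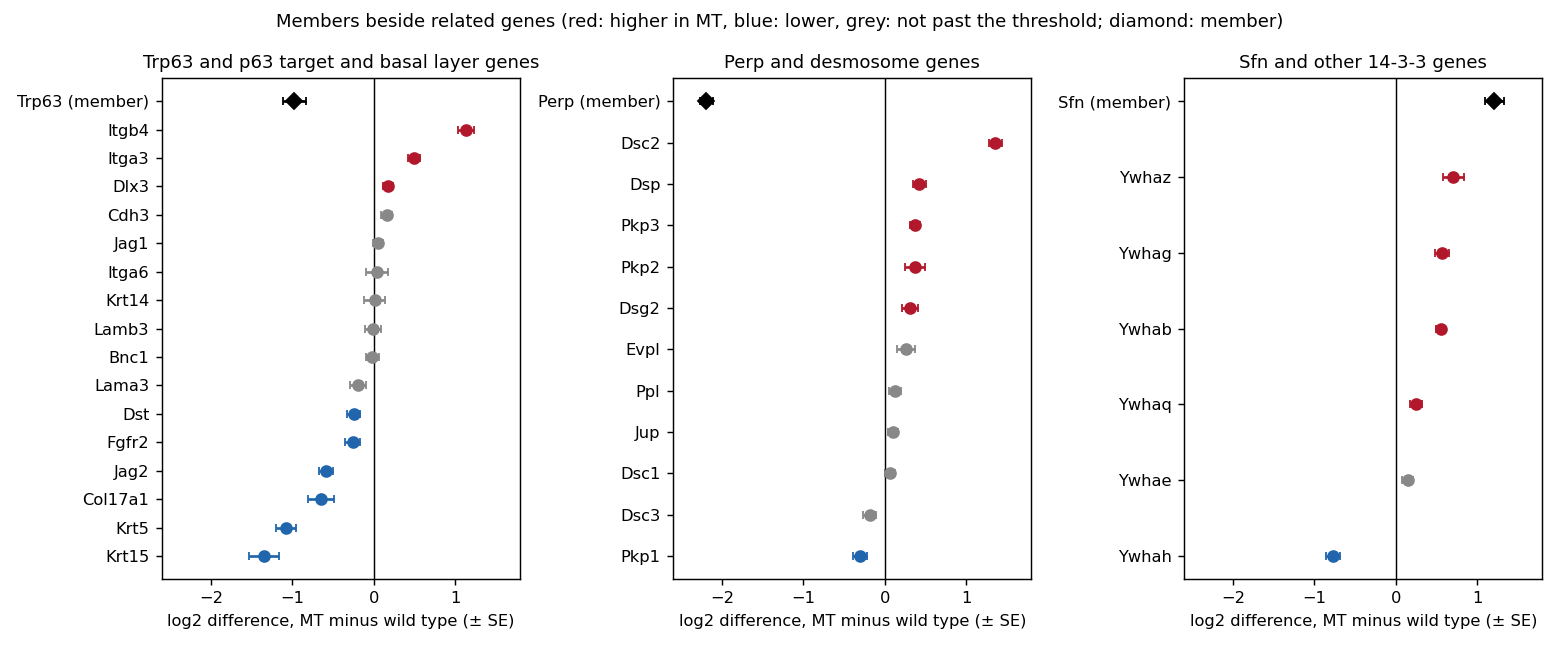
Log2 differences (MT minus wild type, ± SE) of Trp63 by its brightest probe set and of Perp and Sfn by their only ones (black diamonds). Beside them are p63 target and basal layer genes, desmosome genes and other 14-3-3 genes. Red was higher in MT, blue lower and grey did not pass. Perp lies at -2.19 while 5 of 11 desmosome genes lie above 0 past the threshold, and Sfn at 1.21 lies above all 6 other 14-3-3 genes.

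Ccng1 encodes cyclin G1, which p53 induces and which acts with protein phosphatase 2A on Mdm2. Of its 3 probe sets only 1450016_at passed, with 9.002, 9.02, 9.17 and 8.87 on MT arrays 1 to 4, against 8.62, 8.86, 8.42 and 8.47 on wild-type arrays 1 to 4. The groups came close without overlapping, since the lowest MT array read 8.87 and the highest wild-type array 8.86. The difference was 0.43 ± 0.10 (limma adjusted p = 0.0069). Probe set 1420827_a_at, the brightest, averaged 10.04 ± 0.08 in MT and 10.01 ± 0.22 in wild type, with a 95% interval of the difference from -0.19 to 0.26, and 1450017_at averaged 8.94 ± 0.07 in MT and 8.87 ± 0.13 in wild type, with an interval from -0.10 to 0.24. The change on 1450017_at set against that on 1450016_at differed by -0.36 (two-sided exact permutation p = 0.0286), which did not pass after adjustment over the 9 pairs (adjusted exact p = 0.129). Averaged over its 3 probe sets, Ccng1 had a difference of 0.18 and passed (limma adjusted p = 0.0338).

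Other targets of p53 included genes that rose and genes that fell. Of 22 measured targets in arrest, repair and feedback, 9 were higher in MT, 2 were lower and 11 did not pass, with a median difference of 0.08. The 11 of 22 called stand beside 40.0% of all genes called, 19.3% higher and 20.7% lower. The list leaned towards higher in MT, where the 2 directions were nearly even over all genes. That split was not tested, and the list was chosen with earlier results of these data known. Plk2, a polo-like kinase, read 8.83, 8.81, 8.99 and 9.36 on MT arrays 1 to 4, against 6.62, 6.33, 6.61 and 6.37 on wild-type arrays 1 to 4, a difference of 2.51 ± 0.12 (limma adjusted p = 1.07e-07). Pml, the scaffold of nuclear bodies, rose by 1.11 ± 0.09, and Gadd45a, a stress-induced partner of the replication clamp, by 1.00 ± 0.13. Cdkn1a, the cyclin-dependent kinase inhibitor p21, read 8.46, 8.15, 8.21 and 8.74 on MT arrays 1 to 4, against 7.67, 7.74, 7.88 and 8.38 on wild-type arrays 1 to 4. These groups overlapped. The rise of 0.47 ± 0.16 (limma adjusted p = 0.0425) did not pass without MT array 1 or 4 or wild-type array 1, 2 or 3, with adjusted p-values from 0.0857 to 0.122. The other probe set of Cdkn1a had a difference of 0.44 ± 0.11 and passed (limma adjusted p = 0.0084). The 2 that fell were Rrm2b, a ribonucleotide reductase subunit (-0.64 ± 0.06), and Rchy1, a ubiquitin ligase that acts on p53 (-0.61 ± 0.08), both named after their values were seen.

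Of 14 measured targets in cell death, 7 were higher in MT, 3 were lower and 4 did not pass, with a median difference of 0.26. Over all genes 19.3% were higher and 20.7% lower. Pmaip1 (Noxa), a BH3-only protein that opposes Mcl1, read 5.26, 5.62, 5.56 and 5.36 on MT arrays 1 to 4, against 3.84, 3.42, 3.72 and 3.93 on wild-type arrays 1 to 4. Its difference was 1.72 ± 0.12 (limma adjusted p = 1.04e-06), and 1 wild-type value was no higher than the highest Bacillus control of its array. Bid, which links death receptors to mitochondria, rose by 1.48 ± 0.10 (0.54 ± 0.09 on its other probe set), and Trp53inp1, a stress-induced partner of p53, by 1.36 ± 0.09 (0.87 ± 0.11 on its other probe set). The 3 that fell were the death receptor Fas (-0.35 ± 0.09), Siva1 (-0.26 ± 0.06) and Trp53i13 (-0.69 ± 0.10), named after their values were seen. Bax is not analysed here, since no probe set was annotated to it alone.

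Of 15 measured regulators of p53, 8 were higher in MT, 2 were lower and 5 did not pass, with a median difference of 0.21, against shares of 19.3% higher and 20.7% lower over all genes. Trp53bp1, which binds at DNA breaks, rose by 0.91 ± 0.13 (0.40 ± 0.09 on its other probe set), Daxx, a histone chaperone that binds Mdm2, by 0.76 ± 0.06, and the checkpoint kinase Chek2 by 0.41 ± 0.09. Only 4 were higher without MT array 2 and 5 without MT array 3 or wild-type array 1, and leaving out any single array but wild-type array 3 left 1 lower. Cdkn2a, whose Arf product inhibits Mdm2, read 4.93 to 5.28 on MT arrays, against 4.58 to 5.11 on wild-type arrays. The groups overlapped and the difference of 0.24 ± 0.12 did not pass (limma adjusted p = 0.152).

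Genes that p53 represses through p21 and the DREAM complex were mostly higher in MT. Of 15 measured, 13 were higher, 0 were lower and 2 did not pass, with a median difference of 1.16, against 19.3% higher among all genes. These genes also mark cycling cells, and the earlier results that guided the choice of lists had shown a rise of proliferation genes, so the count is not independent of them. Mki67 averaged 7.87 ± 0.19 in MT and 5.44 ± 0.32 in wild type, a difference of 2.43 ± 0.15 (limma adjusted p = 4.67e-07). Birc5 (survivin) rose by 2.25 ± 0.14 and the mitotic kinase Cdk1 by 1.60 ± 0.12.

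**Figure D4:**
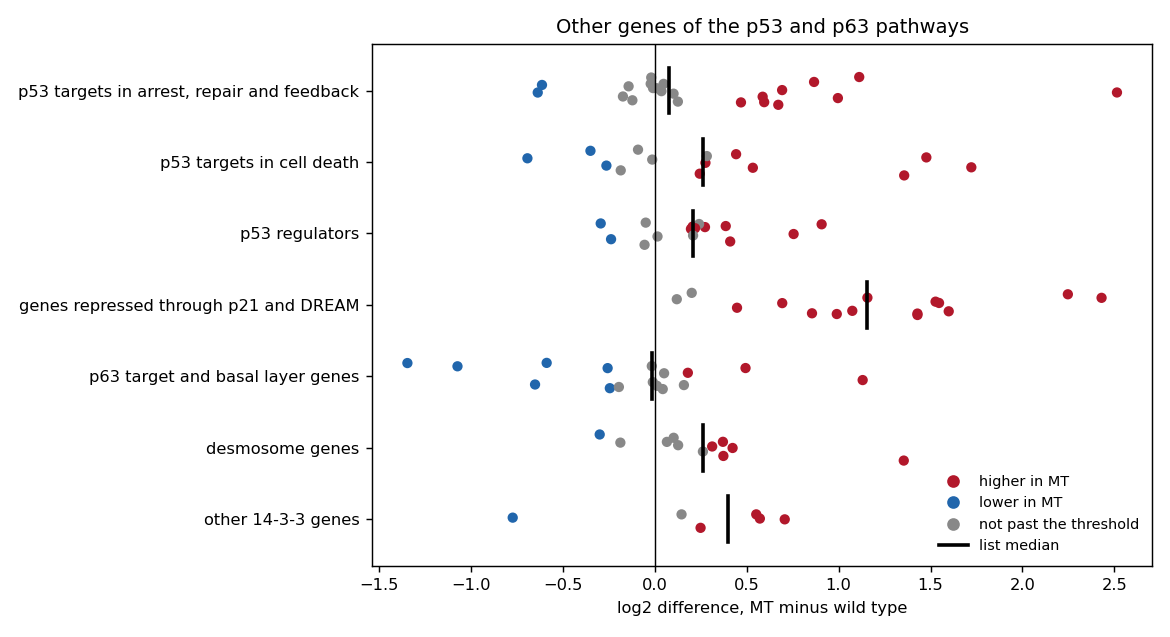
Log2 difference, MT minus wild type, of each measured gene in 7 lists of the p53 and p63 pathways; each point is a gene by its brightest probe set, red higher in MT, blue lower, grey not past the threshold, and the black bar is the list median. The list repressed through p21 and DREAM is centred at 1.16, the 2 lists of p53 targets have medians of 0.08 and 0.26 with points on both sides of 0, and the p63 list is centred near 0.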

How the data were processed

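The deposited table held log2 values of 22690 probe sets on 8 arrays, which the authors computed with RMA, per the submitters' processing notes. RMA subtracts background, equalizes the arrays' quantiles and combines the probes of a set; its version was not stated. The 64 control probe sets were left out of the tests. The array medians ran from 6.21 to 6.23. The precision is limited by the number of arrays. All values were used as deposited, with no filter. Of the 22626 probe sets, 20380 had 1 gene symbol, 691 had several and 1555 had none in the platform annotation.

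One limma fit (lmFit and eBayes, two-sided, Benjamini-Hochberg adjustment, threshold 0.05) covered all 22626 probe sets. A listed gene was taken by its single-symbol probe set with the highest mean. Single values were tested by exact permutation over 70 assignments, whose smallest p is 0.0286. The text names all member probe sets, and up to 3 genes of each list with the largest differences past the threshold and no overlap. Cdkn1a, Cdkn2a and Krt5 are named too. Of the genes most like a member, it names 2 for Perp, Sfn, Mdm4 and Trp63. Only the first is named for Trp73, Mdm2 and Ccng1. Members and lists were chosen with earlier results of these data known. On 5 simulated sets of MT against wild-type arrays (22626 probe sets, 200 changed in each), the fit recovered 64.8% of changes of 0.5 and 96.8% of changes of 1 on the log2 scale. Of its calls there, 3.82% were false. Far fewer probe sets were changed there than the 8552 that passed here, so these shares need not hold for the real comparison. The tools were limma 3.58.1 under R 4.3.3, and numpy 2.4.6, pandas 2.3.3 and matplotlib 3.10.9 under Python 3.11.15. Alternatives were a replicate block, another prior, array weights, renewed scaling, a filter on dim probe sets, other rules for probe sets, a threshold of 0.01 and leaving out each array.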

Additional observations from a re-analysis of the deposited data

Results flagged for a closer look

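In 2 of 74 groups of 4 arrays examined for members and named genes, 1 array stood apart from the other 3 by a gap that, over the group's range, was above Dixon's 95% critical value; chance flags about 1 group in 20. On the Trp63 probe set 1451876_a_at, wild-type array 4 read 4.28, below the other 3 wild-type arrays at 4.53 to 4.54. For Bid, MT array 4 read 6.39, below the other 3 MT arrays at 6.76 to 6.82 and above all wild-type arrays.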

How the results depend on the processing

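Under the replicate block, the robust prior with a trend, array weights, median centring and renewed quantile normalization, the 6 member probe sets that passed were 6 in number again, and the calls of all member probe sets and named genes kept their direction and side of the threshold. The main fit did not pair arrays by number. Deviations of same-numbered arrays from their group means correlated weakly, at 0.08, 0.16, 0.08 and 0.13. Yet all 8 arrays had their highest such correlation with the array of the same number. These values do not settle whether same-numbered arrays belong together. The replicate block gave 8633 probe sets past the threshold, against 8552 without it, and the exact sign-change test over same-numbered arrays cannot go below p = 0.125. With 1 probe set per gene, 5088 of 12393 genes passed, 2447 higher and 2641 lower, and with probe sets averaged per gene 5112 passed, 2403 higher and 2709 lower; fewer features are tested there by construction. Averaging turned Trp73 to -0.047 and brought Ccng1 to 0.18. Among probe sets at or above the median level, 2 of 6 member probe sets tested passed, since the filter removes the dimmer ones by construction. Under that filter, 4 of 7 cell death targets tested and 5 of 5 genes of the DREAM list were higher. Without probe sets marked as matching several transcripts, 5 of 13 regulators, 3 of 8 desmosome genes and 2 of 4 other 14-3-3 genes were higher. Trp63 minus the keratins was 0.42 (exact permutation p = 0.0286) with Trp63 as the mean of its probe sets, 1 of which is not well above background, against -0.17 with the brightest alone. At a threshold of 0.01, 5 member probe sets passed, and Mdm4 on 1419558_at and Cdkn1a did not, while 3 of 15 regulators and 3 of 11 desmosome genes were higher. Leaving out single arrays gave 7355 to 8377 probe sets and 5 or 6 member probe sets past the threshold, -0.0045 to 0.075 for Trp73 on 1452325_at, -0.048 to 0.10 for Ccng1 on 1420827_a_at, -2.48 to -2.40 for Perp minus desmosome genes, 0.87 to 1.06 for Sfn minus other 14-3-3 genes, -0.89 to -0.58 for Mdm2 minus Mdm4 and -0.29 to -0.05 for Trp63 minus the keratins.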
